A study of Homo sapiens with 18 samples.

Results

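The genes described here are 10 genes of the nuclear lamina and the inner nuclear membrane: LMNA, LMNB1, LMNB2, LBR, EMD, TMPO, LEMD3, BANF1, SUN1 and SUN2. They were chosen by measured values in part. LMNA was selected on its lower level in the libraries labelled gN1E under all 3 line labels, and the other 9 were taken for their known place at the lamina. All 10 were found among the 62703 genes of the deposited tables and all 10 passed the filter on low counts in each line. The study silenced NEAT1, a long non-coding RNA that builds the nuclear bodies called paraspeckles, in human multiple myeloma cell lines, and asked which transcripts followed it. RNA-seq was done on 18 libraries from the lines labelled AMO1, H929 (NCI-H929) and LP1, all established from malignant plasma cells. In each line 3 libraries are labelled gN1E, for cells given the NEAT1 gapmeR, and 3 are labelled SCR, for cells given a scrambled gapmeR. The study's methods describe 48 h of treatment with naked gapmeRs, that is without a transfection reagent. The measured NEAT1 levels go against the gN1E and SCR labels. A gapmeR is an antisense oligonucleotide that directs RNase H to the RNA it pairs with, and each label here rests on 1 gapmeR. Total counts per library ran from 28061606 to 69937229. They were lowest in the AMO1 libraries labelled gN1E (28061606 to 49784737, against 53227560 to 66142827 in those labelled SCR).

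The nuclear lamina is a meshwork of intermediate filament proteins that lines the inside of the nuclear envelope, where it carries mechanical load and anchors silent chromatin. LMNA gives rise to the A-type lamins by alternative splicing, while LMNB1 and LMNB2 encode the B-type lamins. Proteins of the inner nuclear membrane such as LBR, emerin (EMD), LAP2 (TMPO) and MAN1 (LEMD3) tie chromatin to this meshwork, and SUN1 and SUN2 join it to the cytoskeleton through the LINC complex. Counts were made per gene, so the lamin A and lamin C transcripts of LMNA were not separated.

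The labels carry limits that bear on each direction below. The names inside the tables exchange SCR with gN1E in 18 of 18 libraries, and H929 with LP1 in 12. NEAT1 itself (ENSG00000245532.11) went against the gapmeR label. In the AMO1 libraries labelled SCR it had 75.7, 78.7 and 90.1 CPM (counts scaled to a common library total by TMM over the 18 libraries), and in those labelled gN1E 474, 540.3 and 509.9 CPM. Under the H929 label it had 80.7, 73.4 and 79.5 CPM in SCR against 561, 465 and 548 CPM in gN1E. Under the LP1 label the values were 135, 172 and 188 CPM in SCR and 656, 666 and 827 CPM in gN1E. NEAT1 was therefore higher in every library labelled gN1E than in any labelled SCR of the same line. The log2 fold changes, libraries labelled gN1E minus libraries labelled SCR, were 2.66 (standard error 0.074) in AMO1, 2.74 (standard error 0.068) in H929 and 2.14 (standard error 0.19) in LP1. The p-values of edgeR's quasi-likelihood test after Benjamini-Hochberg adjustment were 5.1e-13, 3.11e-14 and 0.0269. In LP1 leaving out gN1E A, B or D gave 0.11, 0.0886 and 0.0578 for that edgeR p, and leaving out SCR B 0.176, so the call rests on each of these libraries. The LP1 log2 fold change stayed between 2.003 and 2.251 with any 1 library left out. All libraries are called by their labels, and "higher" means higher in the libraries labelled gN1E, which hold more NEAT1.

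All 9 plasma cell markers examined were above 1 CPM in each line, led by SDC1 in AMO1 (mean 10587 CPM) and H929 (mean 13041 CPM) and by JCHAIN in LP1 (mean 4224 CPM). Their summed level lay between 15628 and 18257 CPM in AMO1, 18006 and 21529.5 CPM in H929 and 11187 and 12032 CPM in LP1. In H929 the sum was higher in the libraries labelled gN1E (20317 to 21529.5 CPM) than in those labelled SCR (18006 to 19133 CPM), as was that of 10 immunoglobulin constant genes (21162 to 21652 CPM against 16828 to 20953 CPM). Of these plasma cell markers, SDC1 was higher and CD38 lower in the H929 libraries labelled gN1E, and none was called in the other 2 lines (edgeR's quasi-likelihood test). The SDC1 call was lost if any 1 library other than gN1E A was left out (edgeR adjusted p up to 0.0932). The kappa light chain gene IGKC had medians of 10229, 9435 and 6909 CPM in AMO1, H929 and LP1. IGHA1, which encodes an IgA heavy chain, had medians of 7525 CPM in AMO1 and 9389.7 CPM in H929 but 7.89 CPM in LP1, and IGHG1 was above 2 CPM only under the H929 label (median 736 CPM). The libraries labelled AMO1 and H929 thus shared their leading heavy and light chain classes and differed in IGHG1, while those labelled LP1 held IGKC with little heavy chain RNA of the IgA or IgG classes. These chains were not set against a reference for each line, so it is not established that the line labels are right, and each level difference between lines rests on them.

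Markers of other cell types were low, CD3E and, in LP1, PECAM1 excepted. The 8 fibroblast markers summed to between 0.894 and 2.95 CPM over the 18 libraries, with COL3A1, LUM and DCN at 0 counts in each. The macrophage list summed to at most 9.74 CPM, with C1QA, C1QB and FCGR3A at 0, and its sum was lower in the libraries labelled gN1E in AMO1 (0.896 to 2.06 CPM against 2.67 to 3.22 CPM in SCR) and in LP1 (3.84 to 6.30 CPM against 7.41 to 9.74 CPM). MARCO, its most abundant gene in AMO1, was the 1 marker called there (log2 fold change -0.89, standard error 0.23, Benjamini-Hochberg adjusted p = 0.0454 by edgeR's quasi-likelihood test). That call was lost if SCR C, SCR D, gN1E C or gN1E D was left out (edgeR adjusted p up to 0.229). The T cell list summed to at most 32.9 CPM, led by CD3E in each line, and was lower under gN1E in LP1 (10.49 to 14.3 CPM against 14.9 to 16.5 CPM). The mature B cell list summed to at most 3.11 CPM and was higher under gN1E in AMO1 (0.839 to 0.872 CPM against 0.613 to 0.766 CPM). The epithelial list summed to at most 9.53 CPM and was lower under gN1E in AMO1 (5.48 to 7.11 CPM against 7.49 to 9.53 CPM) and in H929 (1.92 to 2.04 CPM against 2.40 to 2.89 CPM). The endothelial list summed to between 301 and 342 CPM in LP1, nearly all of it PECAM1, and was lower under gN1E (301 to 315 CPM against 329 to 342 CPM), while CDH5 and KDR were at 0. The part of these levels in the lamina values was not tested, and in bulk RNA fewer cells of a type and less RNA per cell cannot be told apart.

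LMNA (ENSG00000160789.24; chromosome 1 of hg38, 156082573 to 156140081, plus strand) is given as a description with no test, since these values selected it. The AMO1 libraries labelled SCR had 310.3, 281 and 311 CPM, and those labelled gN1E 267, 225 and 213 CPM. Under the H929 label it had 357, 344 and 334 CPM in SCR and 286, 298 and 294 CPM in gN1E. Under the LP1 label the values were 775, 809 and 723 CPM in SCR and 605, 657 and 613 CPM in gN1E. In each line the 3 libraries labelled gN1E lay below the 3 labelled SCR, a separation that 16.9%, 21.8% and 17.7% of all genes tested showed in one direction or the other in AMO1, H929 and LP1. The log2 fold changes were -0.34 (standard error 0.070), -0.25 (standard error 0.046) and -0.28 (standard error 0.050), that is 0.789, 0.841 and 0.823 times the level of the libraries labelled SCR. The rule used this contrast, so nothing is read from the separation.

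**Figure D1:**
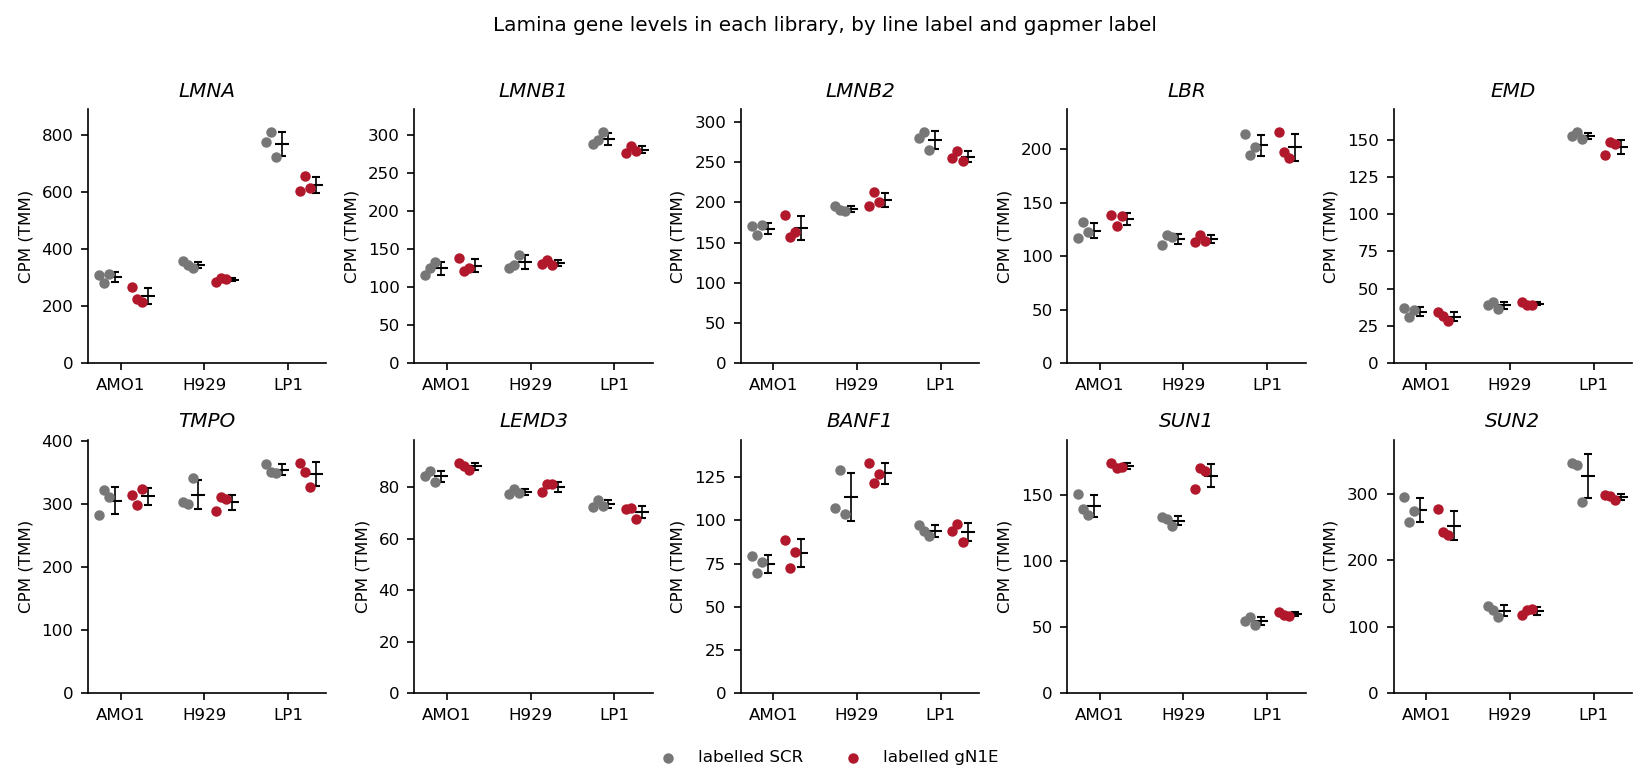
Level of each lamina gene in CPM (TMM scaling over 18 libraries, axes from 0) by line label; grey points are libraries labelled SCR, red points libraries labelled gN1E, and black bars the mean ± SD of 3 libraries. LMNA (used to choose the genes) lies lower under gN1E in each line, SUN1 lies higher, and the other 8 genes overlap between the labels in at least 1 line.

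Of the 9 other genes, 1 was called at an adjusted p under 0.05 in AMO1, 1 under the H929 label and 0 under the LP1 label. The same test called 2.06%, 5.47% and 1.43% of all genes in these lines. Both calls were SUN1, and both were higher, where 1.64% of all genes in AMO1 and 3.7% under the H929 label were called higher. Under the LP1 label 0.656% of all genes were called higher. No gene of the 9 was called lower in any line, where 0.419%, 1.77% and 0.777% of all genes were in AMO1, H929 and LP1. The share of calls that were higher was 79.7%, 67.7% and 45.8% in the 3 lines, and 51.2%, 42.8% and 63.8% with counts scaled by library size only. An unadjusted edgeR p under 0.05 was reached by 2 of the 9 in each line: SUN1 with LBR in AMO1, with BANF1 in H929 and with SUN2 in LP1. Of all genes, 12.2%, 17.7% and 13% reached it in these lines. In LP1 limma-voom and DESeq2 also called 0. The count rose to 2 in H929 without SCR B, which added BANF1, and to 1 in LP1 without SCR D, which added SUN2. The counts over all genes rested more on single libraries. In AMO1 473 genes were called, and 261 without SCR D, 288 without gN1E C and 254 without gN1E D. Under the H929 label 1286 were called, with 709 left if SCR A was dropped and 701 if gN1E B was. In LP1 332 were called, and 123, 87 and 780 without SCR A, B and D and 143, 176 and 202 without gN1E A, B and D. With the replicate letter as a block, which pairs the AMO1 libraries, 1 of the 9 was again called in AMO1, while the count over all genes rose from 473 to 1394. Over the 9 genes the log2 fold changes had a median of 0.054 in AMO1, 0.018 in H929 and -0.040 in LP1, against -0.016, -0.0096 and -0.0012 over all genes tested.

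**Figure D2:**
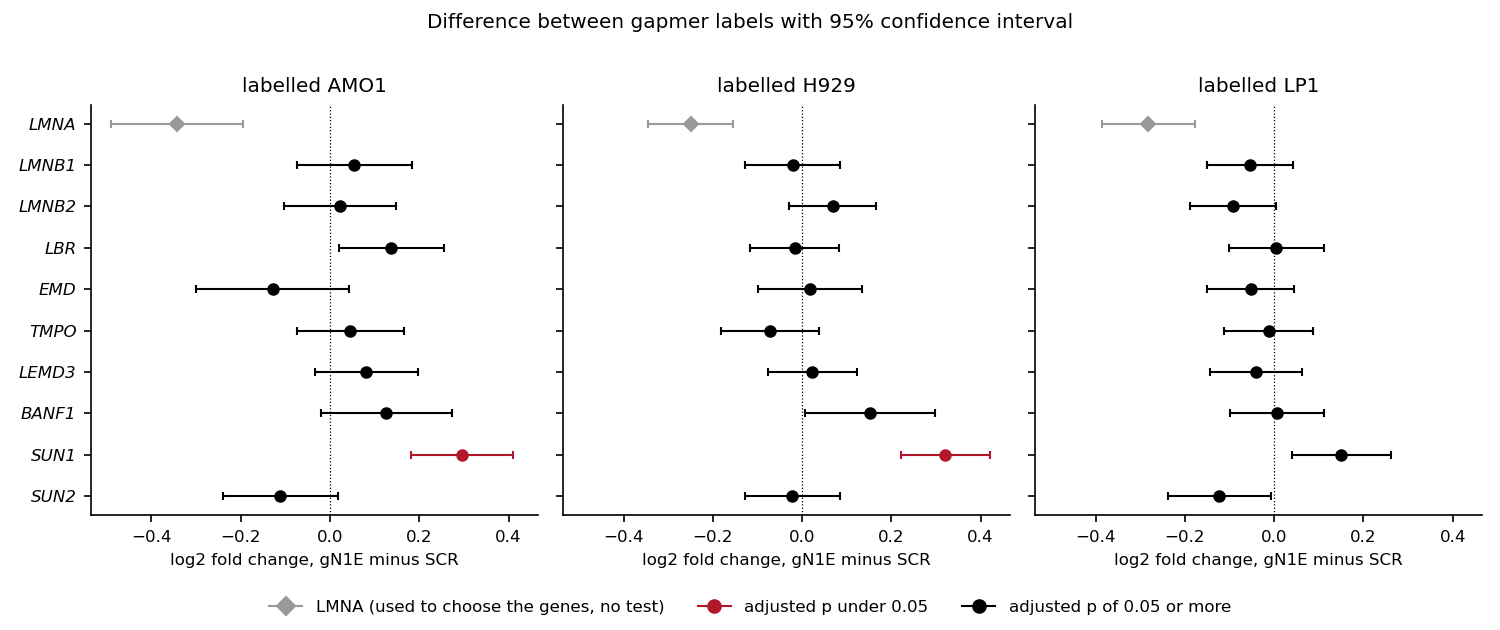
Log2 fold change (libraries labelled gN1E minus libraries labelled SCR) of each lamina gene with its 95% confidence interval, by line label; grey diamonds are LMNA, shown without a test, and red points passed an adjusted p of 0.05. SUN1 in AMO1 (0.30) and H929 (0.32) are the red points, on the opposite side of 0 from LMNA.

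SUN1 (ENSG00000164828.18; chromosome 7 of hg38, 816615 to 896435, plus strand) encodes an inner nuclear membrane protein whose nuclear end binds A-type lamins and whose other end reaches the nesprins. In the AMO1 libraries labelled SCR it had 151, 139 and 134 CPM, and in those labelled gN1E 174, 170.2 and 171 CPM. Under the H929 label it had 133, 132 and 126 CPM in SCR and 155, 170.2 and 168 CPM in gN1E. Under the LP1 label the values were 54.3, 57.9 and 51.4 CPM in SCR and 61.2, 59.5 and 58.7 CPM in gN1E. SUN1 was thus higher in every gN1E library than in any SCR library of the same line, the reverse of LMNA. The log2 fold change was 0.30 in AMO1 (standard error 0.055, Benjamini-Hochberg adjusted p = 0.00335 by edgeR's quasi-likelihood test). It was 0.32 under the H929 label (standard error 0.048, adjusted p = 4.49e-05 by that edgeR test) and 0.15 under the LP1 label (standard error 0.054, adjusted p = 0.201 by that edgeR test). These are 1.23, 1.25 and 1.11 times the level of the libraries labelled SCR, and the direction held in 3 of 3 libraries of each line. The calls in AMO1 and H929 kept an adjusted p under 0.05 under each alternative fit and with any library left out, where the highest values from the edgeR test were 0.0438 (AMO1 without SCR D) and 0.00164 (H929 without gN1E B). With a 1.5-fold change required, neither counted.

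SUN2 (ENSG00000100242.16), the partner of SUN1 in the LINC complex, had values on the other side of 0. In AMO1 it had 294, 258 and 274 CPM in SCR and 277, 242 and 238 CPM in gN1E, and under the LP1 label 347, 344 and 288 CPM in SCR and 299, 297 and 291 CPM in gN1E. The labels overlapped in both lines and also under the H929 label (115 to 132 CPM in SCR, 117 to 128 CPM in gN1E). Within each AMO1 pair of the same replicate letter SUN2 was lower under gN1E, and with that letter as a block SUN2 was not called. Its log2 fold changes were -0.11 (standard error 0.062), -0.022 (standard error 0.052) and -0.12 (standard error 0.056) in AMO1, H929 and LP1, with Benjamini-Hochberg adjusted p-values of 0.498, 0.882 and 0.345 by edgeR's quasi-likelihood test. The AMO1 value ran from -0.17 without gN1E A to -0.057 without SCR A. Without SCR D, the lowest of the LP1 SCR libraries, the LP1 value was -0.20 with an adjusted p of 0.0146 in the same edgeR test.

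The B-type lamin genes were not called in any line. LMNB1 (ENSG00000113368.12) had 125 ± 8.62 CPM in SCR and 128 ± 8.88 CPM in gN1E in AMO1, and 132 ± 9.21 and 132 ± 3.48 CPM under the H929 label (mean ± SD, n = 3 each). Under the LP1 label it had 295 ± 7.82 CPM in SCR and 281 ± 4.36 CPM in gN1E, and the 3 gN1E libraries lay just below the SCR libraries. LMNB2 (ENSG00000176619.13) had 167 ± 6.80 and 168 ± 14.7 CPM in AMO1, 192 ± 3.46 and 203 ± 9.10 CPM in H929 and 278 ± 11.2 and 257 ± 6.64 CPM in LP1 (SCR and gN1E, SD, n = 3 each). It was also separated in LP1, where its log2 fold change was -0.093 (standard error 0.046, 95% confidence interval -0.19 to 0.0032). The LP1 value of LMNB1 was -0.054 (standard error 0.047, 95% confidence interval -0.15 to 0.042), and -0.024 without SCR D. For each of the 2 genes the adjusted p in that line was at least 0.402 (Benjamini-Hochberg, edgeR's quasi-likelihood test).

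Set against the B-type lamins on the scale of CPM per kilobase of exon, LMNA held 36.1 ± 1.28% of the summed level of the 3 lamin genes in the AMO1 libraries labelled SCR and 30.2 ± 1.25% in those labelled gN1E (SD, n = 3 each). The shares were 37.1 ± 1.38% and 32.7 ± 0.436% under the H929 label and 41.6 ± 1.29% and 38.0 ± 0.629% under the LP1 label. These shares hold the LMNA values used to select it and are a description.

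The genes of the inner nuclear membrane that bind chromatin were not called either. LBR (ENSG00000143815.15), which binds B-type lamins and is also a sterol reductase, had 117, 132 and 123 CPM in the AMO1 SCR libraries and 138, 129 and 138 CPM in gN1E. Its log2 fold change there was 0.14 (standard error 0.057, Benjamini-Hochberg adjusted p = 0.316 by edgeR's quasi-likelihood test), and the labels overlapped. EMD (ENSG00000102119.12), which encodes emerin, had its largest difference in AMO1 too, with 37.3, 30.9 and 35.7 CPM in SCR and 34.1, 31.5 and 28.3 CPM in gN1E. The log2 fold change was -0.13 (standard error 0.082) and the labels overlapped. It ran from -0.21 without SCR C to -0.065 without gN1E D. Under LP1 the gN1E libraries (140, 149 and 147 CPM) lay below the SCR libraries (152, 155 and 150 CPM), and the log2 fold change was -0.052 (standard error 0.047). Leaving out LP1 gN1E A gave -0.023. TMPO (ENSG00000120802.14), which encodes the LAP2 proteins, lay between 282 and 365 CPM in the 18 libraries, and its labels overlapped in each line.

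LEMD3 (ENSG00000174106.3), which encodes MAN1, an inhibitor of SMAD signalling, was separated in opposite directions in 2 lines. The AMO1 libraries had 84.4, 86.2 and 81.8 CPM in SCR and 89.4, 88.2 and 86.5 CPM in gN1E, and the LP1 libraries 72.2, 75.1 and 72.5 CPM in SCR and 71.7, 71.8 and 67.7 CPM in gN1E. The log2 fold changes were 0.081 (standard error 0.055) and -0.040 (standard error 0.050), and neither was called. BANF1 (ENSG00000175334.8), which encodes a small DNA-binding protein that links the LEM-domain proteins to chromatin, had its largest difference under the H929 label. It had 107, 129 and 103 CPM in SCR and 133, 121 and 127 CPM in gN1E, which overlap. The log2 fold change was 0.15 (standard error 0.068, Benjamini-Hochberg adjusted p = 0.259 by edgeR's quasi-likelihood test). Without SCR B, the highest SCR library, it was 0.25 with an adjusted p of 0.00432 in the same edgeR test, and with no filter on low counts the adjusted p of that test was 0.0413. Without SCR C it was 0.096, with an adjusted p of 0.556 in that edgeR test. The BANF1 pseudogenes had at most 75 counts in a library and TMPOP2 at most 58, against at least 2184 for BANF1 and 8968 for TMPO. Reads that align to several places were left out of the counts, so reads that BANF1 or TMPO share with copies were not measured. TMPO-AS1 (at most 1129 counts) overlaps TMPO on the other strand, and counting was by strand.

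Over the 8 genes other than LMNA and SUN1, log2 fold changes ran from -0.13 (EMD) to 0.14 (LBR) in AMO1, from -0.072 (TMPO) to 0.15 (BANF1) under the H929 label and from -0.12 (SUN2) to 0.0066 (BANF1) under the LP1 label. Of these 8, 2, 4 and 6 had a value below 0 in the 3 lines. Their 95% confidence intervals reached down to -0.30 (EMD) in AMO1, -0.18 (TMPO) in H929 and -0.24 (SUN2) in LP1. Without SCR C the H929 log2 fold change of TMPO was -0.0042. With counts scaled by library size only, LMNB2 in AMO1, EMD and LEMD3 in H929 and TMPO in LP1 had the opposite sign. Libraries of the 2 labels were apart for 2 of the 9 genes in AMO1 (SUN1 and LEMD3), for 1 in H929 (SUN1) and for 5 in LP1 (SUN1 higher; LMNB1, LMNB2, EMD and LEMD3 lower), where 16.9%, 21.8% and 17.7% of all genes were.

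Whether the response differed between lines was tested by an interaction term with all 18 libraries fitted together. For AMO1 against H929, 0 of the 9 genes and 0% of all genes were called, with 0 of the 9 and 1771 of 26436 genes at an unadjusted p under 0.05. Against LP1, 0 of the 9 were called with AMO1 and 0 with H929, where 0.741% and 0.874% of all genes were, and 2 of the 9 had an unadjusted p under 0.05 in each, as did 2820 and 2664 of all genes. Limma-voom and DESeq2 also called 0 in each of the 3 pairs. For SUN1 the response was 0.16 higher on the log2 scale in AMO1 than in LP1 (standard error 0.075, 95% confidence interval 0.013 to 0.32, Benjamini-Hochberg adjusted p = 0.41 by edgeR's quasi-likelihood test). It was 0.20 higher in H929 than in LP1 (standard error 0.074, 95% confidence interval 0.053 to 0.36, adjusted p = 0.275 by that edgeR test). With counts scaled by library size only these SUN1 differences were 0.081 and 0.096 (edgeR adjusted p 0.774 and 0.711). SUN1 was thus called in AMO1 and H929 and not in LP1, but a difference between those responses did not pass the test. For LMNA, as a description, the responses differed by -0.11 (standard error 0.085) between AMO1 and H929, -0.041 (standard error 0.085) between AMO1 and LP1 and 0.067 (standard error 0.085) between H929 and LP1.

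Levels between the lines were not used to select LMNA, so all 10 genes were tested, each line averaged over its 2 gapmeR labels. The table names exchange H929 with LP1, so each difference with those lines follows the labels and may belong to the other line. The libraries labelled LP1 held the most A-type and B-type lamin RNA. LMNA ran from 605 to 809 CPM (median 690.2) in its 6 libraries, against 213 to 311 CPM (median 274) in AMO1 and 286 to 357 CPM (median 316) in H929. The LP1 libraries did not overlap those of either other line, while AMO1 and H929 overlapped. The AMO1 level was 0.386 times that of LP1 (log2 difference -1.37, standard error 0.043, Benjamini-Hochberg adjusted p = 2.75e-24 by edgeR's quasi-likelihood test). It was 0.850 times that of H929 (log2 difference -0.23, standard error 0.042, adjusted p = 2.52e-05 by that edgeR test). LMNB1 ran from 277 to 304 CPM (median 287) in LP1, against 116 to 138 CPM (median 126) in AMO1 and 125 to 143 CPM (median 130.01) in H929, and AMO1 and H929 did not differ beyond their spread (log2 difference -0.038, standard error 0.040, adjusted p = 0.481 by that edgeR test).

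EMD and SUN1 had the largest log2 differences between AMO1 and LP1, in opposite directions. EMD ran from 140 to 155 CPM (median 149.6) in LP1, 28.3 to 37.3 CPM (median 32.8) in AMO1 and 36.6 to 41.3 CPM (median 39.2) in H929. Its AMO1 level was 0.223 times that of LP1 (log2 difference -2.17, standard error 0.046, Benjamini-Hochberg adjusted p = 1.27e-29 by edgeR's quasi-likelihood test). SUN1 ran from 51.4 to 61.2 CPM (median 58.3) in LP1, 134 to 174 CPM (median 161) in AMO1 and 126 to 170.2 CPM (median 144) in H929. Its AMO1 level was 2.74 times that of LP1 (log2 difference 1.45, standard error 0.038, adjusted p = 4.67e-27 by that edgeR test). SUN2 instead set H929 apart, with 115 to 132 CPM (median 126) against 238 to 294 CPM (median 266) in AMO1 and 288 to 347 CPM (median 298) in LP1. The AMO1 level of SUN2 was 2.16 times that of H929 (log2 difference 1.11, standard error 0.046, adjusted p = 2.39e-18 by that edgeR test).

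In all, 8 of the 10 genes were called between AMO1 and H929, 10 between AMO1 and LP1 and 10 between H929 and LP1, in tests that called 44.4%, 75.9% and 74.6% of all genes. So many genes differed between lines that these counts say little of the lamina. LMNA, LMNB1, LMNB2, LBR, EMD, TMPO and SUN2 were higher in LP1 than in each other line, and SUN1 and LEMD3 were lower. With counts scaled by library size only, 7 of the 10 were called between AMO1 and LP1: the log2 difference of TMPO changed sign (0.0059 in place of -0.18) and those of SUN2 (-0.047) and BANF1 (-0.075) were no longer called. With the same scaling 9 were called between H929 and LP1, TMPO (-0.0083) being the exception. Between AMO1 and H929 the SUN1 difference (0.11) was not called without AMO1 SCR A (0.089) or H929 gN1E A (0.091). It was also not called in the libraries labelled gN1E alone (0.093), where 7 of the 10 were. In the libraries labelled SCR alone 6 were called between AMO1 and H929, those of LBR (0.11) and EMD (-0.15) being lost, and 9 between H929 and LP1, that of LEMD3 (0.075) being lost. BANF1 was highest in H929. Line and culture cannot be told apart in these differences.

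**Figure D3:**
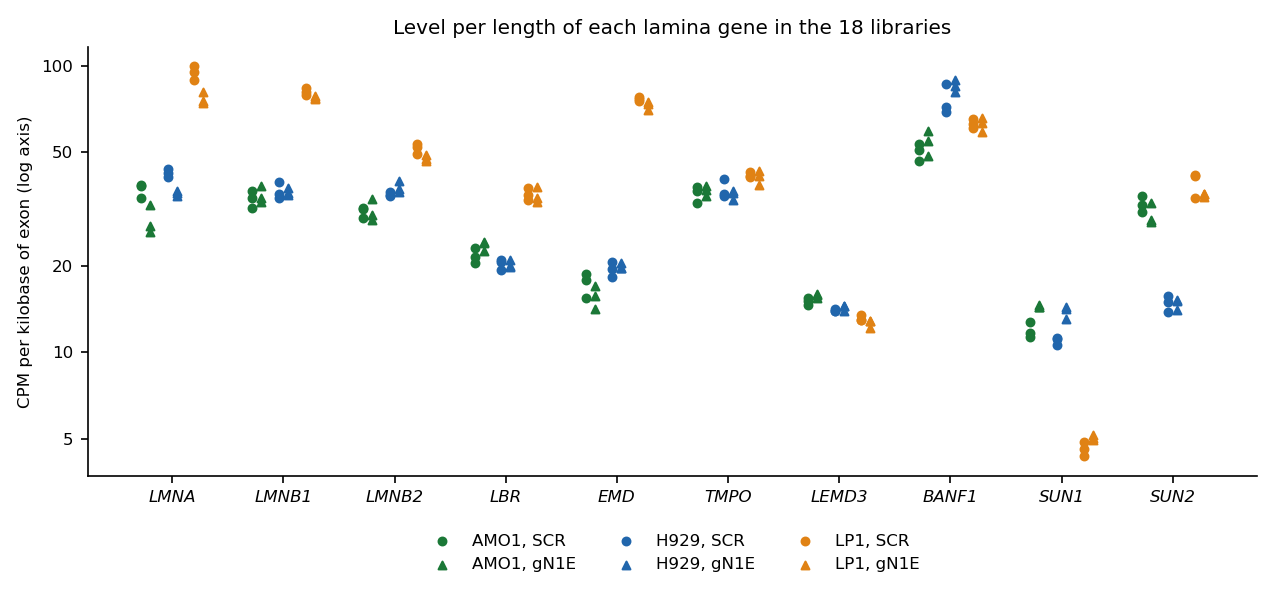
CPM per kilobase of exon (log axis) of each lamina gene in the 18 libraries, coloured by line label; circles are libraries labelled SCR and triangles libraries labelled gN1E. SUN1 is the lowest gene in each line, and LMNA, LMNB1 and EMD lie higher in LP1 than in AMO1 and H929.

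Between genes, levels were set side by side as CPM per kilobase, using the merged exon length in the tables, which spans all annotated isoforms. Over the libraries of both gapmeR labels, BANF1 was highest in AMO1 (mean 52.2) and H929 (mean 80.5). In LP1 LMNA was highest (mean 85.6 ± 10.51, SD, n = 6), where the ranges of LMNB1 (79.3 ± 2.67) and EMD (74.7 ± 2.61) overlapped that of LMNA. LMNA led in the LP1 libraries labelled SCR (mean 94.5, LMNB1 81.3) but not in those labelled gN1E (mean 76.8, LMNB1 77.3). In AMO1, TMPO (36.3), LMNB1 (34.9), LMNA (32.9), SUN2 (31.6) and LMNB2 (31.1) followed BANF1 with ranges that overlapped. Among these followers LMNA was highest in the AMO1 libraries labelled SCR (37.0) and lowest in those labelled gN1E (28.9). On this scale SUN1 was the lowest of the 10 in each line, at means of 13.2, 12.4 and 4.83 CPM per kilobase in AMO1, H929 and LP1. LEMD3 came next to it in order (15.4, 14.2 and 12.9 CPM per kilobase), and the ranges of these 2 genes overlapped in AMO1 and H929 but not in LP1. In the AMO1 libraries labelled gN1E, EMD (15.7) lay just below LEMD3 (15.8). The rank of SUN1 depends on its merged exon length, the longest of the 10 (11850 bases). In CPM, SUN1 (medians 161 and 144) lay above EMD (32.8 and 39.2) in AMO1 and H929, and was lowest in LP1 (58.3).

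Other genes of the nuclear envelope and its partners were examined in 8 lists of 135 genes. Of these, 121, 120 and 124 were tested in AMO1, H929 and LP1. In AMO1 5 were higher and 0 lower, under the H929 label 18 were higher and 6 lower, and under the LP1 label 0 were higher and 2 lower. Of all genes tested, 1.64%, 3.7% and 0.656% were called higher and 0.419%, 1.77% and 0.777% lower in these lines. The median log2 fold change was 0.048, 0.037 and 0.00084, against the medians over all genes given above. With the replicate letter as a block, 19 of these genes were called in AMO1, where that fit called 6.08% of all genes. An unadjusted p under 0.05, given below for some lists, was reached by 12.2%, 17.7% and 13% of all genes in AMO1, H929 and LP1. The shares over all genes include many genes at low counts. Of 22933, 23499 and 23165 genes tested, 13034, 13276 and 12740 reached a log2 CPM of 1. No share was taken over genes at the level of the lists, so how far level bears on the list counts was not tested. The counts in AMO1 and LP1 rested on single libraries: they were 1 without AMO1 SCR D, 0 without AMO1 gN1E C or gN1E D, 1 without LP1 SCR A or gN1E B, 0 without LP1 SCR B or gN1E A and 7 without LP1 SCR D. Under the H929 label the count was 9 without SCR A or gN1E B.

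The nucleoporins, which build the nuclear pore, held 8 of the 18 higher genes under the H929 label (of 32 tested, median log2 fold change 0.074) and 2 of the 5 in AMO1 (median 0.11), where 3.7% and 1.64% of all genes were called higher. In LP1 0 were called (median 0.038). Under the H929 label 5 were called without SCR A or gN1E B. In AMO1, 6 were called with the replicate letter as a block, 1 without SCR C, SCR D or gN1E A and 0 without gN1E C or gN1E D. POM121, a membrane anchor of the pore, had 161 ± 13.9 CPM in SCR and 212 ± 8.56 CPM in gN1E under the H929 label, a log2 fold change of 0.38 (standard error 0.054, Benjamini-Hochberg adjusted p = 2.5e-05 by edgeR's quasi-likelihood test). AHCTF1 (ELYS), which seeds pore assembly on chromatin, was higher by 0.30 under the H929 label (standard error 0.050, adjusted p = 0.000213 by that edgeR test) and by 0.27 in AMO1 (standard error 0.057, adjusted p = 0.0101 by that edgeR test). The AMO1 call of AHCTF1 was lost without gN1E C or gN1E D (edgeR adjusted p up to 0.125), and that of NUP98 (0.20) without any 1 of SCR A, C and D and gN1E A, C and D (edgeR adjusted p up to 0.313). In LP1, where 4 nucleoporins had an unadjusted p under 0.05 and limma-voom called 0 and DESeq2 1, the smallest adjusted p-values of that edgeR test were 0.0688 for NUP85 (0.21, standard error 0.057) and 0.284 for NUP93 (0.13, standard error 0.053). NUP85 was the gene called by DESeq2 (adjusted p = 0.0438). It was also called by edgeR with library size only, with no filter on low counts and without SCR A (adjusted p of 0.042, 0.0365 and 0.0488). POM121 and its copy POM121C, also called, share sequence, so their counts are uncertain.

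**Figure D4:**
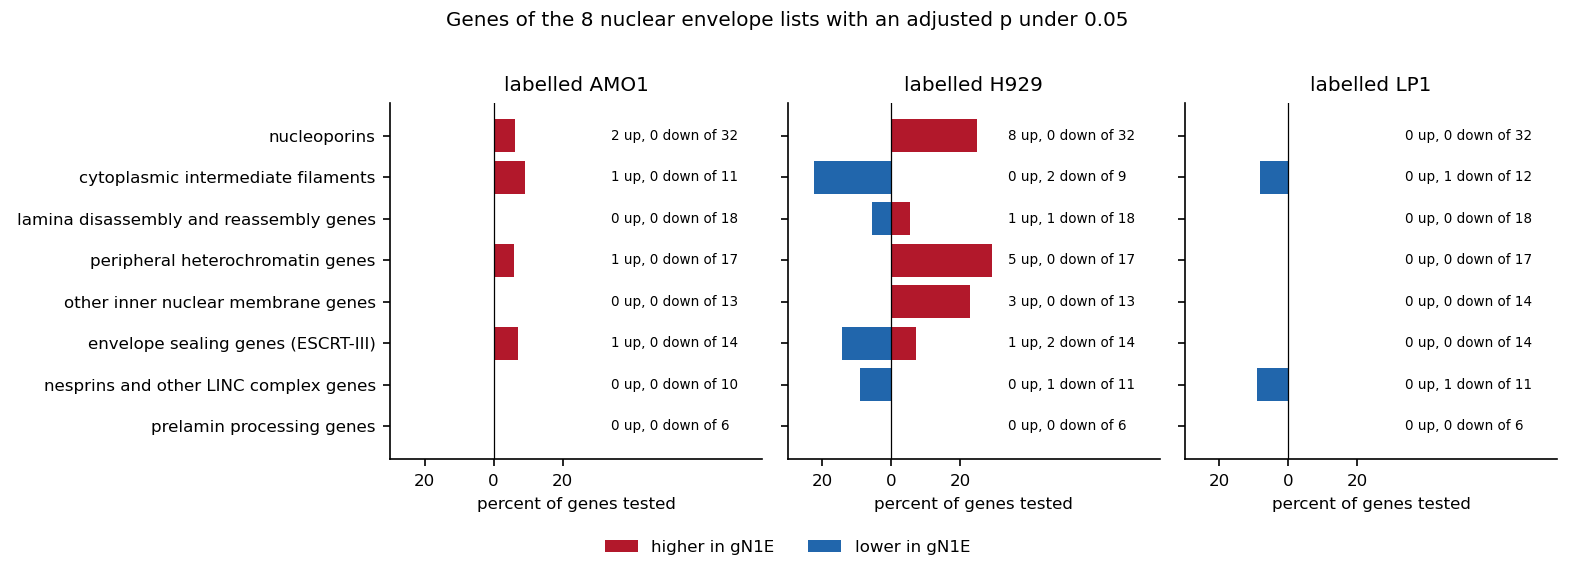
Percent of the genes tested in each of 8 nuclear envelope lists that were called at an adjusted p under 0.05, by line label; red bars to the right are genes higher in the libraries labelled gN1E, blue bars to the left genes lower, and the text gives the counts. Under the H929 label 8 of 32 nucleoporins and 5 of 17 peripheral heterochromatin genes were higher.

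Among genes of peripheral heterochromatin, 5 of 17 were higher under the H929 label (median log2 fold change 0.072), where 3.7% of all genes were called higher, 1 in AMO1 (median 0.061; 2 called with the replicate block) and 0 in LP1 (median 0.020), where 1 had an unadjusted p under 0.05 and limma-voom and DESeq2 called 0. Those higher under the H929 label included the histone methyltransferase genes SETDB1 (0.19), EHMT1 (0.21), EHMT2 (0.20) and SUV39H1 (0.18), and each of these lost its call if SCR A or gN1E B was left out. EHMT2 and SUV39H1 also lost it without SCR C, EHMT2 without gN1E C and SUV39H1 without gN1E A. The highest edgeR adjusted p of these 4 without a library were 0.0774, 0.0865, 0.197 and 0.186. KMT5B was the AMO1 gene (0.31, standard error 0.069), and its call was lost without SCR D, gN1E C or gN1E D (edgeR adjusted p up to 0.122).

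Cytoplasmic intermediate filament genes are the relatives of the lamins outside the nucleus. VIM (vimentin) had 1289 ± 38.0 CPM in SCR and 1068 ± 93.9 CPM in gN1E under the H929 label, and 1741 ± 122 and 1429.5 ± 49.7 CPM under the LP1 label (SD, n = 3 each). The difference on the log2 scale was -0.28 in H929 (standard error 0.056, Benjamini-Hochberg adjusted p = 0.00168 by edgeR's quasi-likelihood test) and -0.27 in LP1 (standard error 0.052, adjusted p = 0.0104 by that edgeR test). The LP1 call was lost without SCR A, SCR B or gN1E A (edgeR adjusted p up to 0.114). In AMO1 the value was -0.15 (standard error 0.058, adjusted p = 0.252 by that edgeR test). KRT8 was lower under the H929 label (-0.29) and NES higher in AMO1 (0.27), and these calls were lost without any 1 library, SCR C excepted for KRT8 (edgeR adjusted p up to 0.177 and 0.200). The list's median was -0.15, -0.24 and -0.13 in AMO1, H929 and LP1 over 11, 9 and 12 genes tested. Many of these genes lay below 1 CPM. Under the H929 label the median was the value of SYNM (standard error 0.59), at 0.163 CPM in SCR and 0.139 CPM in gN1E. These medians therefore do not show a fall across the list. Of all genes, 1.64% were called higher in AMO1, and 1.77% and 0.777% lower in H929 and LP1. With the replicate block 3 of the list were called in AMO1 in place of 1, and 6.08% of all genes in place of 2.06%. In LP1 2 were called without SCR D.

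The LINC complex list held 1 call in each of 2 lines, both lower, of 11 genes tested in each, where 1.77% (H929) and 0.777% (LP1) of all genes were called lower: SPAG4, a SUN-domain gene, under the H929 label (-0.33, standard error 0.087) and PLEC (plectin, which links nesprin-3 to intermediate filaments) under the LP1 label (-0.27, standard error 0.060). Each was lost without SCR A, SCR B, gN1E A or gN1E B of its line (edgeR adjusted p up to 0.196 and 0.198). Neither was called with all 18 libraries fitted together, and limma-voom did not call SPAG4. The nesprin genes were not called. In AMO1 0 of the list were called, with 3 at an unadjusted p under 0.05, 0 by limma-voom, 1 by DESeq2, 2 with the replicate block and 1 without gN1E A. In LP1 2 were called without SCR D. Of 13 other inner nuclear membrane genes tested under the H929 label, 3 were higher (NRM 0.26, TMEM201 0.21 and ANKLE1 0.18), where 3.7% of all genes were called higher, and 0 were called in AMO1 or LP1, with 3 at an unadjusted p under 0.05 in each, 0 by limma-voom, 1 in AMO1 by DESeq2 and 3 in AMO1 with the replicate block. With a library left out 1 was called in AMO1 (gN1E A) and 1 in LP1 (SCR D). Each of the 3 higher in H929 lost its call without SCR A, NRM and ANKLE1 also without SCR C or gN1E A, NRM without gN1E C, and TMEM201 and ANKLE1 without gN1E B (edgeR adjusted p up to 0.284). With counts scaled by library size only, 0 of these inner nuclear membrane genes were called in H929, and limma-voom called 1. The list for sealing of the envelope after mitosis had 14 genes tested, of ESCRT-III and of proteins that act with it. Of these, IST1 was higher in AMO1 (0.23, standard error 0.052) and H929 (0.21, standard error 0.046). CHMP7 (-0.16) and CHMP2B (-0.18) were lower under the H929 label. Of all genes, 1.64% in AMO1 and 3.7% in H929 were called higher, and 1.77% lower in H929. The H929 call of IST1 held with any library left out, the AMO1 call was lost without SCR D, gN1E C or gN1E D (edgeR adjusted p up to 0.151), and those of CHMP7 and CHMP2B without any 1 library, SCR C excepted for CHMP7 (edgeR adjusted p up to 0.191). With counts scaled by library size only the AMO1 call of IST1 was also lost (log2 fold change 0.19). Among 18 genes tested that take the lamina apart and rebuild it in mitosis, CDK1 (-0.20, standard error 0.055) was lower and LPIN1 (0.18, standard error 0.047) higher under the H929 label, beside the same 1.77% and 3.7% of all genes. CDK1 was not called without SCR C, and neither was LPIN1; without gN1E B or gN1E C both also missed the threshold, as did CDK1 without gN1E A and LPIN1 without SCR A (edgeR adjusted p up to 0.153). In AMO1 and LP1 0 of these were called, with 4 and 6 at an unadjusted p under 0.05, 0 by limma-voom or DESeq2, 2 in AMO1 with the replicate block and 2 in LP1 without SCR D. Of the 6 prelamin processing genes, which include the protease gene ZMPSTE24, 0 were called in each line by edgeR, limma-voom or DESeq2, and 1 had an unadjusted p under 0.05 (in H929). In H929 1 was called by edgeR with library size only or without SCR C.

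The genes around LMNA were also examined. Of 25 genes tested in all 3 lines within 250 kb of the LMNA body, 0 were called in each line by edgeR's quasi-likelihood test, limma-voom or DESeq2, and 2, 5 and 6 had an unadjusted p under 0.05 in AMO1, H929 and LP1. That edgeR test called 2.06%, 5.47% and 1.43% of all genes, so 0 of 25 is near what all genes give and does not settle whether the LMNA difference extends along the chromosome. Their median log2 fold change was -0.027 in AMO1, 0.018 in H929 and -0.038 in LP1. MEX3A, whose body ends 0.108 kb before that of LMNA on the other strand, had -0.091 (standard error 0.11), 0.14 (standard error 0.076) and -0.0014 (standard error 0.085). SEMA4A, 7.29 kb beyond the far end of LMNA, had -0.027 (standard error 0.062), 0.052 (standard error 0.047) and -0.073 (standard error 0.045). Counting by strand keeps the reads of MEX3A and LMNA apart.

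**Figure D5:**
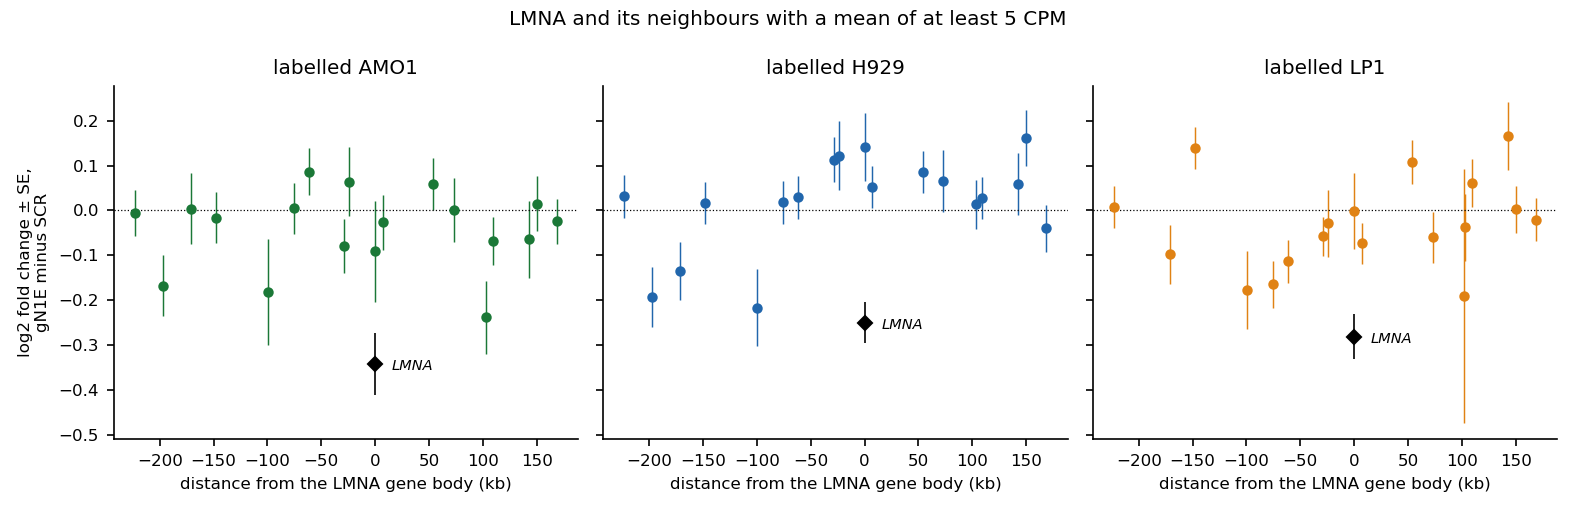
Log2 fold change ± standard error (libraries labelled gN1E minus libraries labelled SCR) of LMNA (black diamond) and of its neighbours within 250 kb that had a mean of at least 5 CPM in the line, against distance from the LMNA gene body in kb. None of the neighbours was called.

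The genes whose log2 CPM was most like that of LMNA over the 18 libraries were GTF2F1, RGS14, CORO1B, EHBP1L1 and EIF3G, with Pearson correlations of 0.986 to 0.988 among 9757 genes, a measure that follows the difference between LP1 and the other lines. EMD (0.97), LMNB1 (0.95) and LMNB2 (0.95) ranked 84, 559 and 713 on it, and SUN1 ranked 9698 (-0.97). After each line's mean was subtracted, the 5 most like LMNA were FDXR, UBXN6, ALDH16A1, GIPC1 and CORO1A, from 0.973 down to 0.923. On that scale SUN2 had a correlation of 0.74 (rank 328), EMD 0.65, LMNB2 0.41, LMNB1 0.16, TMPO 0.0059, LEMD3 -0.10, BANF1 -0.17, LBR -0.36 and SUN1 -0.71 (rank 9338). These correlations are a description over libraries that share lines and the contrast that selected LMNA, and carry no test.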

How the data were processed

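RNA-seq of 18 libraries was analysed from the raw counts per gene deposited by the authors, who aligned reads to hg38 (STAR 2.7.10a) and counted pairs by strand on GENCODE release 43 (featureCounts 1.6.4), leaving out reads that align to several places, with no normalization. Each table lists 62703 genes, and a table of names gave symbols for 62639. Groups follow the sample labels. The 10 genes and all lists were chosen with earlier results of these data known. Nothing states that replicates came from separate cultures, so p-values measure the spread between these libraries, which may be technical.

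Each line was fitted by itself with edgeR 4.0.16 (TMM, robust quasi-likelihood fit, Benjamini-Hochberg adjustment over the genes tested, threshold 0.05) in R 4.3.3. A gene was kept if any library of the line held 10 reads or more. Levels and differences in response between lines came from all 18 libraries fitted together. CPM used TMM over the 18 libraries, with a prior count of 2 for log2 CPM. LMNA had no test between the gapmeR labels. The alternatives were limma-voom (limma 3.58.1), DESeq2 1.42.0, RLE or no size factors, 2 other low-count filters, a block for the replicate letter, a genomic span offset, thinned counts, a joint fit, an adjusted p of 0.1 with a 1.5-fold change, 1 gapmeR label for levels, and each library left out. Libraries of the same letter deviated together in AMO1 (correlations 0.199, 0.160 and 0.123 across genes), which pairs them, and not for each letter in H929 (0.0015, -0.067 and -0.095) or LP1 (0.174, 0.0098 and -0.057).

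Genes named come from the 10, NEAT1, the list genes called in any line (for a list with over 6, the 2 with the smallest adjusted p in each line), the nearest neighbours of LMNA and the 5 genes most like it by each measure. POM121C and single markers were named after their values were seen. The edgeR fits were tested on simulated data. Figures were drawn with matplotlib 3.10.9 in Python 3.11.15.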

Additional observations from a re-analysis of the deposited data

How the results depend on the processing

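SUN1 kept its direction in each line, and its calls in AMO1 and H929, under each alternative other than the 1.5-fold change. Counts and signs below are those that changed, and the cause was not tested.

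The members other than LMNA called became 0 in AMO1 and 0 in H929 with an adjusted p of 0.1 and a 1.5-fold change, and 2 in H929 with no filter on low counts. With a library left out the count was 1 to 2 in H929 and 0 to 1 in LP1.

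The count for the other lists was 5 in AMO1 and became 3 with limma-voom, library size only, the genomic span offset or thinned counts, 9 with no filter, 0 with the 1.5-fold change and 0 to 5 with a library left out. In H929 it was 24 and became 14 with limma-voom, 15 with library size only or the joint fit, 0 with the 1.5-fold change and 9 to 20 with a library left out. In LP1 it was 2 and became 4 with no filter, 1 with the span offset, the joint fit or the 1.5-fold change, and 0 to 7 with a library left out. The count over all genes became 808 in AMO1 and 700 in LP1 with no filter, 512 in LP1 with DESeq2, and 176, 369 and 102 in AMO1, H929 and LP1 with the 1.5-fold change. With a library left out it was 254 to 606, 701 to 1272 and 87 to 780.

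With the replicate letter as a block, which pairs the AMO1 libraries, the other lists gave 19 calls and all genes 1394 in AMO1. In H929 and LP1, whose letters do not pair, the lists gave 14 and 1.

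Signs changed only for values that were not called, the level of TMPO between AMO1 and LP1 excepted. With library size only, log2 fold changes became -0.016 (LMNB2, AMO1), -0.028 and -0.023 (EMD and LEMD3, H929) and 0.016 (TMPO, LP1), and that TMPO level difference 0.0059. Response differences became -0.0091 (TMPO) and -0.053 (SUN2) for AMO1 minus LP1, and -0.041 (LMNB1), -0.096 (LBR), -0.0032 (EMD) and -0.010 (LEMD3) for H929 minus LP1. DESeq2 gave -0.0031 for that LBR difference. In LP1, LBR became -0.0023, -0.0027 and -0.017 and BANF1 -2.9e-05, -0.0013 and -0.015 with no filter, thinned counts and the joint fit. The TMPO level, AMO1 minus H929, became -0.028 in SCR libraries alone.

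With a library left out, ranges that crossed 0 were, in AMO1, -0.041 to 0.063 (LMNB2) and -0.0056 to 0.085 (TMPO). In H929 they were -0.060 to 0.042 (LMNB1), -0.051 to 0.0011 (LBR), -0.018 to 0.058 (EMD) and -0.066 to 0.024 (SUN2). In LP1 they were -0.044 to 0.035 (LBR), -0.047 to 0.024 (TMPO) and -0.027 to 0.043 (BANF1). For response differences they were -0.00032 to 0.11 (LMNB1), -0.084 to 0.0073 (SUN1) and -0.14 to 0.025 (BANF1) for AMO1 minus H929, -0.13 to 0.0083 (EMD) and -0.033 to 0.11 (SUN2) for AMO1 minus LP1, and -0.024 to 0.063 (LBR) and -0.067 to 0.040 (TMPO) for H929 minus LP1.

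Depth was lowest in the AMO1 gN1E libraries, and SUN1 kept its call there with counts thinned to the smallest total. Exon length spans all isoforms, so CPM per kilobase is low for genes with many. Table names that exchange SCR with gN1E leave the direction of each response tied to NEAT1, not to the gapmeR. Level differences with H929 or LP1 follow labels that the table names exchange.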
